A study of Brassica napus with 74 samples.

Results

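The 150 genes described here were those of the Brassica napus seed whose transcripts stood furthest above every later seed subregion in all 3 integument subregions of the ovule. Each gene of the table, 101040 in all, was given a score from the mean log2(TPM + 1) of each subregion, where TPM is the share of transcripts after correction for gene length and library total. The score was the lowest of the means in the chalazal (ovCZSC), inner distal (ovISC) and outer distal (ovOSC) seed coat of the ovule minus the highest of the means in the 22 subregions of the globular, heart and mature green seed. The 150 highest scores above 0 were kept after 4 genes named XTH9, a xyloglucan endotransglucosylase/hydrolase that remodels the cell wall, had been set aside. The members were thus selected on their levels in the integuments and in the later subregions, and those levels are given as a description. The rule did not use the chalazal proliferating tissue of the ovule (ovCPT). It set no direction among the integuments or among the later tissues, but by taking the lowest integument mean and the highest later mean it disfavoured genes low in 1 integument or high in 1 later tissue.

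Subregions were cut by laser microdissection from paraffin sections of seed of the cultivar Topas, the only genotype used, grown in chambers under long days with no treatment other than hand pollination. Ovules were taken at 0 days after pollination, and globular (g), heart (h) and mature green (mg) seed at 7, 10 and 28 days. The ovule was divided into ovCPT (2 libraries), ovCZSC, ovISC and ovOSC (3 libraries each). The later stages comprised the same 4 maternal subregions, the embryo proper (EP), the micropylar (MCE), peripheral (PEN) and chalazal (CZE) endosperm, and in mature green seed the cotyledons (COT) and embryonic root (ROOT), with 2 to 5 libraries each. Each library was a pool of many sections from several plants, and nothing states that the libraries of a subregion came from different plants, so the p-values measure the spread between these pooled samples. In bulk tissue, fewer cells of a type and less RNA per cell cannot be told apart.

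Integuments are maternal sheets of cells that grow up from the base of the ovule and enclose the nucellus and the embryo sac. After fertilization they keep their maternal genotype and become the seed coat, while the zygote forms the embryo and the fertilized central cell forms the endosperm. In Arabidopsis, integument cells divide for a short time after fertilization and then grow mainly by expansion while their layers specialize. B. napus carries the An subgenome of B. rapa and the Cn subgenome of B. oleracea, so that many genes are present as homoeologs.

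Reads recovered from the TPM values, a lower limit of the depth, numbered 3412842 and 144816 in the ovCPT libraries, 3860038 to 10638149 in the 9 integument libraries and 115752 to 14523682 in the globular libraries. A median member was covered by 40 reads in ovCPT replicate 1 and by 2 reads in ovCPT replicate 2, against 168.5 to 579 reads in the integument libraries. Replicates of 1 ovule subregion correlated across genes at r = 0.55 in ovCPT and at 0.90 to 0.97 in the integuments. In heart CZSC, replicate 3 correlated with replicates 1 and 2 at only 0.48 and 0.62. In globular MCE, replicates 1 to 3 correlated with replicates 4 and 5 at 0.64 to 0.67. More than 3 in 4 genes of the table were above 1 TPM in some libraries. Among them were ovCPT replicate 1 (85.0% of all genes), heart CPT replicate 3 (84.0%), heart CZSC replicates 2 and 3 (75.8% and 97.0%) and mature green CPT replicate 1 (90.2%). Of the integument libraries ovISC replicate 3 was highest, at 74.9%, against 44.5% and 42.0% in ovISC replicates 1 and 2. The part of these differences in the results was not tested. The label of the outer layer was matched by its marker: 2 genes of CUT1, which acts in cuticular wax synthesis in epidermal cells, summed to 5.77 TPM in ovISC and 54.3 TPM in ovOSC. By library the CUT1 sum ranged from 0.235 to 14.2 TPM in ovISC and from 45.6 to 66.7 TPM in ovOSC. For ovCPT the markers were mixed. The CEP1 genes BnaA03g23380D and BnaC03g27700D had 19.0 and 12.1 TPM in ovCPT and at most 1.06 TPM as a mean in any integument, whereas CUT1 had 43.9 TPM in ovCPT against 7.89 TPM in ovCZSC, and the WIH genes were mostly higher in ovCZSC.

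Of all genes, 8280 (8.19%) scored above 0, and the scores of the members lay between 1.04 and 4.12 with a median of 1.24. Of the members, 15 scored at least 2 and 3 scored at least 3. The last members in were BnaA10g20980D, BnaC04g28830D and BnaC08g47940D (1.04 each), and the first genes out were BnaC04g56910D, BnaA06g05170D and BnaC07g27510D (1.03 each), so the limit divided genes of nearly the same value. Mean TPM over the 9 integument libraries reached 614, with a median of 27.8, and it exceeded 100 TPM for 30 members and stayed under 10 TPM for 20. For 113 of the 150 the lowest integument library was above the highest of the 63 later libraries, a pattern found in 0.647% of all genes, and nothing is read from it because the rule used that contrast. The An subgenome held 79 members (52.7%) and the Cn subgenome 71 (47.3%), where 44.2% of all assigned genes, and 46.3% of those expressed in the integuments, lay in An. Chromosome A03 carried 13 members, A06, C08 and C09 carried 11 each, and C07 carried 1.

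The members' summed transcripts took up a similar share of the ovCZSC, ovISC and ovOSC libraries and a smaller share of every later library. Their TPM summed to 2558 ± 74.2 in ovCPT (SD, n = 2), against 10973 ± 535 in ovCZSC, 10577 ± 2235 in ovISC and 10105 ± 904 in ovOSC (n = 3 each). In the globular seed coat the sum was 950 ± 99.1 in gCZSC, 1252 ± 419 in gISC (n = 3 each) and 2256 ± 318 in gOSC (n = 2). The highest later sum was that of gEP, with 4668, 4229, 1618 and 1614 TPM in its 4 libraries, and the lowest on the deposited scale were those of the mature green embryo, with 43.8 to 114 TPM in the mgCOT libraries. Rescaling left out the 58 genes whose TPM averaged at least 1000 over all subregions, so genes that passed 1000 TPM in a few subregions only could stay. After it the member median was lowest in gCZE (0.29 on the log2 scale) and hCZE (0.34), against 1.47 in mgCOT and 1.31 in mgROOT. Within each layer the median member was lower at the globular stage than in the ovule by 2.90 log2 units in CZSC, 2.58 in ISC and 2.03 in OSC, where the median of all genes was lower by 0.30, 0.30 and 0.50. At the heart stage the members' median was lower by 3.02, 3.11 and 2.51 log2 units than in the same ovule layer. At the mature green stage it was lower by 3.19, 3.42 and 3.35. The rule required a lower level in every later subregion, the globular ones included, so no timing is read from these values.

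**Figure D1:**
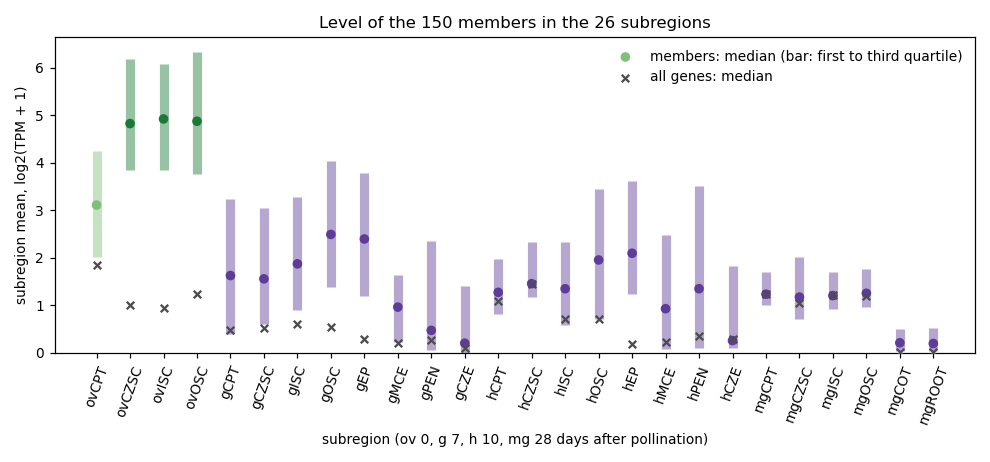
Level of the 150 members in each subregion as mean log2(TPM + 1), with the subregions of the ovule on the left and the later stages in time order. Points are member medians, bars span the first to the third quartile and crosses are the medians of all genes; the member median is 3.11 in ovCPT, 4.83 in ovCZSC, 4.93 in ovISC and 4.88 in ovOSC, and at most 2.49 (gOSC) in any later subregion.

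The highest-scoring member was BnaA08g26170D. It had 117, 140.4 and 125 TPM in ovCZSC, 81.2, 90.0 and 68.6 TPM in ovISC and 112, 122 and 140.5 TPM in ovOSC. Its highest later mean was 3.65 ± 0.670 TPM in hEP (SD, n = 3), and it was under 1 TPM in 18 of 25 globular, 16 of 23 heart and 13 of 15 mature green libraries. BnaC09g00900D had 37.6, 34.8 and 59.7 TPM in ovCZSC, 36.0, 28.8 and 23.9 TPM in ovISC and 72.9, 129 and 46.4 TPM in ovOSC, and at most 2.61 TPM in a later library (hEP replicate 1). The 3 ovOSC libraries of this gene differed among themselves by more than the ovCZSC and ovISC means did. BnaA08g22970D had 30.4 to 35.5 TPM in ovCZSC, 35.2 to 59.3 TPM in ovISC and 75.1 to 115 TPM in ovOSC, with a highest later mean of 2.97 ± 1.27 TPM in hISC.

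The other members among the 8 highest scores ranged widely in level in the integuments. BnaA10g23500D, the most abundant of these, had 419.5, 496 and 440.3 TPM in ovCZSC, 159, 217 and 106 TPM in ovISC and 163, 174 and 181 TPM in ovOSC, and its highest later mean was 27.6 ± 14.4 TPM in gCZSC (n = 3). BnaC05g13990D averaged 125 ± 36.5 TPM over the 9 integument libraries and 16.9 ± 3.81 TPM in gEP (n = 4). BnaC01g04180D averaged 19.0 ± 5.86 TPM in the integuments and 2.20 ± 0.331 TPM in gEP. BnaC03g02850D and BnaC02g38640D, which complete the 8, differed among the integuments and are described below. The identity of these genes is known only by identifier, since their annotation was not used here.

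**Figure D2:**
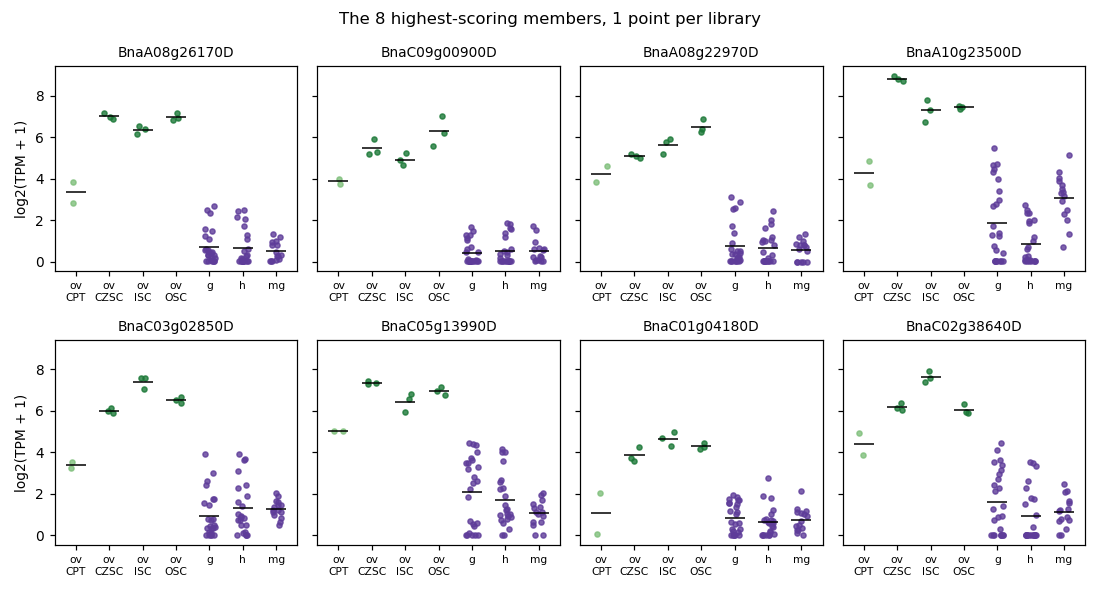
The 8 highest-scoring members with 1 point per library on a log2(TPM + 1) axis, the ovule subregions at the left of each panel and the pooled globular (g), heart (h) and mature green (mg) libraries after them. Horizontal lines are means; for BnaA08g26170D every integument library is at 68.6 TPM or more while its highest later library, gEP replicate 4, is at 5.48 TPM.

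The most abundant members were not the highest scoring. BnaA03g09170D had 618, 639 and 635 TPM in ovCZSC, 844, 732 and 517 TPM in ovISC and 536, 532 and 468 TPM in ovOSC, but it ranked 66 because it averaged 251 ± 159 TPM in gEP (n = 4). In that subregion it had 384, 392, 117 and 109.9 TPM, so replicates 1 and 2 stood well above replicates 3 and 4. BnaA06g04320D averaged 553 ± 106 TPM in the integuments and 179 ± 123 TPM in gEP, and BnaC09g36190D 494 ± 99.7 TPM and 155 ± 107 TPM. BnaC02g38490D (495 ± 95.6 TPM) and BnaC04g28830D (316 ± 66.6 TPM) were next highest in gCPT, at 209.9 ± 13.3 TPM and 128 ± 2.70 TPM (n = 3). BnaC04g41350D, BnaA03g22060D and BnaA05g20240D, the remaining members of the 8 most abundant, averaged 389 ± 46.6, 358 ± 88.4 and 313 ± 58.3 TPM in the integuments. The gEP split was not particular to these genes: replicates 1 and 2 were both above replicates 3 and 4 for 77 members and for 69.5% of all genes, and the reverse held for 41 members.

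After the ovule the members were highest in several different tissues. The highest later mean lay at the globular stage for 91 members, at the heart stage for 48 and at the mature green stage for 11. Among globular and heart subregions it lay in the seed coat for 56 members, in the embryo proper for 49, in the endosperm for 22 and in the CPT for 12. The single subregions named most often were gEP (36 members, 24%), gOSC (27, 18%) and hPEN (18, 12%). Among all genes that scored above 0 the shares were 25.1%, 17.1% and 6.91%, so the gEP and gOSC counts lay near that background. After all TPM were rescaled without the 58 genes that averaged at least 1000 TPM over the subregions, 137 of the members scored above 0. Of the members 93 stayed among the 150 highest, and hEP was the highest later subregion of 56. On that scale the members' median score was 0.69, and 1637 genes of the table scored above 0, against 8280 as deposited. On the deposited scale, members highest later in the endosperm had a median integument level of 62.8 TPM and comprised 18 An and 4 Cn genes. Those highest later in the seed coat had a median of 25.9 TPM and comprised 25 An and 31 Cn genes. The subgenome shares of comparable genes were not computed, so no bias is read from these counts. The 11 members whose later maximum was in mature green seed coat or CPT were of low level after the ovule, with a median maximum of 1.80 on the log2(TPM + 1) scale, and none exceeded 57.0 TPM as an integument mean. Within the globular seed coat 106 members were highest in gOSC, against 40.9% of the genes expressed there. The share among all genes that scored above 0 was not computed for this count, so nothing particular to the members is read from it. Of the 2 gOSC libraries, replicate 2 had 561586 recovered reads. After the rescaling gOSC was the highest later subregion of 10 members.

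Many members stayed measurable in embryo and outer seed coat after the ovule. In every library of gOSC 108 members were above 1 TPM (36.4% of all genes), as were 86 in gEP (25.4%) and 106 in hEP (25.3%). In the mature embryo 116 members (77.3%) were under 1 TPM in every mgCOT and mgROOT library, as were 92.2% of all genes. Of the 144 members with recovered reads, 133 lacked any read in at least 1 of the 63 later libraries, with a median of 10 libraries. BnaA09g01400D and BnaA10g06590D, named after their values were seen, lacked reads in 55 of them. BnaA10g06590D was also uneven within the ovule, with 77.4 and 1.16 TPM in ovCPT, 6.75 to 17.6 TPM in ovCZSC, 34.5 to 87.0 TPM in ovISC and 0.0278 to 22.0 TPM in ovOSC, so that replicates of 1 subregion differed widely.

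Between the distal layers, 8 members passed the test. Of 150 members tested on log2(TPM + 1) with limma and Benjamini-Hochberg adjustment over 87297 genes, 4 were higher in ovISC than in ovOSC (0.81% of all genes tested were) and 4 were lower (2.08% of all genes tested). The median member difference, ovISC minus ovOSC, was 0.04 log2 units, where that of all genes was -0.13. At an unadjusted p under 0.05 the number of members was 37, and that of all 87297 genes tested was 9064. Without the 2 ovCPT libraries, which share the estimate of spread, the counts were 10 higher and 15 lower, an alternative chosen after seeing the data, and without ovISC replicate 2 or ovOSC replicate 2 the higher or the lower count was 2.

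BnaC05g08120D showed the widest gap between the layers. It had 86.4, 103 and 88.6 TPM in ovISC, against 4.47, 5.74 and 6.89 TPM in ovOSC (difference 3.82, SE 0.23, limma adjusted p = 4.5e-06). BnaA03g56350D had 28.8, 34.8 and 31.0 TPM in ovISC, against 8.71, 8.95 and 7.48 TPM in ovOSC (1.79, SE 0.33, limma adjusted p = 0.0095), a call lost without ovISC replicate 2. BnaC02g38640D had 166, 191 and 241 TPM in ovISC, against 57.9, 61.0 and 78.5 TPM in ovOSC (1.58, SE 0.27, limma adjusted p = 0.0073). Its call was lost in the fit over all 74 libraries (limma adjusted p = 0.29). In all 3 genes no ovISC library overlapped an ovOSC library. BnaC03g02850D, with 190.0, 189.9 and 131 TPM in ovISC against 83.5, 102 and 89.8 TPM in ovOSC, passed narrowly (0.87, SE 0.21, limma adjusted p = 0.045). Its call was lost in 10 of 14 alternatives, with limma adjusted p up to 0.59. These were each library of the pair left out other than ovISC replicate 3, a pseudocount of 0.1 TPM, rescaling, quantile normalization, the fit over all 74 libraries and the replicate block.

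In the opposite direction, BnaC08g17520D had 10.6, 8.96 and 6.83 TPM in ovISC, against 63.1, 55.3 and 74.5 TPM in ovOSC (-2.74, SE 0.26, limma adjusted p = 0.000113). BnaA03g05110D had 5.43, 9.63 and 6.29 TPM in ovISC, against 53.6, 54.7 and 47.4 TPM in ovOSC (-2.74, SE 0.25, limma adjusted p = 9.5e-05). Both genes were between these levels in ovCZSC, with medians of 29.5 and 13.9 TPM. BnaC06g15810D, with 16.7, 16.2 and 14.3 TPM in ovISC against 33.7, 43.1 and 49.0 TPM in ovOSC, was lower by a smaller margin (-1.35, SE 0.32, limma adjusted p = 0.045). Its call was lost without any 1 of these 6 libraries and with a pseudocount of 0.1 TPM. BnaC09g39750D, named after its values were seen, had 51.1, 41.2 and 37.3 TPM in ovISC and 80.7, 106 and 92.4 TPM in ovOSC (-1.10, SE 0.19, limma adjusted p = 0.0084).

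The chalazal integument differed from the distal layers in 15 members. Compared with the mean of ovISC and ovOSC, 6 members were higher in ovCZSC (6.19% of all genes tested were) and 9 were lower (1.67% of all genes tested). The median difference was 0.08 log2 units, where that of all genes was -0.08. At an unadjusted p under 0.05 the number of members was 37, and that of all 87297 genes tested was 15130. Leaving out 1 library gave 3 to 6 higher and 4 to 8 lower members, with 3 higher without ovCZSC replicate 2, 4 lower without ovCZSC replicate 1 or 3, and 5 lower without ovCZSC replicate 2, ovISC replicate 1, ovISC replicate 2 or ovOSC replicate 2. Without the 2 ovCPT libraries the counts were 17 higher and 21 lower.

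Of the members higher in ovCZSC, BnaA10g23500D had 419.5, 496 and 440.3 TPM there, well above its ovISC and ovOSC libraries given above (1.46, SE 0.27, limma adjusted p = 0.0050). That call did not hold in the fit over all 74 libraries (limma adjusted p = 0.29). BnaA05g04220D had 24.6, 35.3 and 39.1 TPM in ovCZSC, against 6.58 to 18.2 TPM in the 6 ovISC and ovOSC libraries (1.46, SE 0.27, limma adjusted p = 0.0048). BnaC04g02880D had 34.0, 42.5 and 42.1 TPM in ovCZSC, against medians of 15.8 TPM in ovISC and 17.1 TPM in ovOSC (1.14, SE 0.17, limma adjusted p = 0.00086). No ovCZSC library of these 3 genes overlapped a distal library. BnaC02g11430D, which carries the terms calmodulin binding and response to stress, had 7.72, 9.88 and 7.61 TPM in ovCZSC, against 4.09 to 4.68 TPM in ovISC and 3.45 to 4.11 TPM in ovOSC (0.89, SE 0.22, limma adjusted p = 0.023). Its call was lost under quantile normalization and without any 1 of the 3 ovCZSC libraries, ovISC replicate 1 or ovOSC replicates 2 or 3, with limma adjusted p up to 0.19.

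Of the members lower in ovCZSC, BnaAnng36760D had 19.2, 16.7 and 14.9 TPM there, against 56.8, 56.5 and 44.5 TPM in ovISC and 80.0, 113 and 112 TPM in ovOSC (-2.04, SE 0.22, limma adjusted p = 0.000103). BnaA07g16780D followed it closely, with 19.6, 16.4 and 14.0 TPM in ovCZSC, against 52.0, 52.7 and 42.2 TPM in ovISC and 70.1, 106 and 105 TPM in ovOSC (-1.96, SE 0.21, limma adjusted p = 9.3e-05). The ratio of BnaAnng36760D to BnaA07g16780D stayed between 0.979 and 1.14 in the 9 integument libraries, and their means correlated at r = 0.99 over the 26 subregions. Whether their sequences are alike enough to share reads was not tested. BnaA09g34280D had 19.5, 25.1 and 22.2 TPM in ovCZSC, against 51.6 to 92.1 TPM in ovISC and 79.4 to 134 TPM in ovOSC (-1.79, SE 0.23, limma adjusted p = 0.00034). BnaC05g08120D, BnaA08g22970D and BnaC06g43640D passed the same test although 1 or more ovCZSC libraries lay within the range of the distal ones. The calls of BnaA08g22970D and BnaC05g08120D were lost in the fit over all 74 libraries and without any 1 of the ovCZSC libraries or ovISC replicate 1. That of BnaC05g08120D was also lost without ovISC replicates 2 or 3 or ovOSC replicates 2 or 3, and with a pseudocount of 0.1 TPM.

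**Figure D3:**
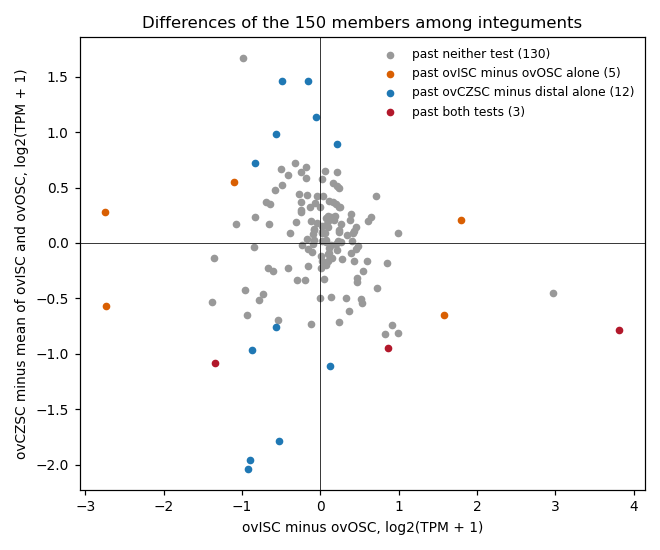
Difference of each of the 150 members between ovISC and ovOSC (horizontal axis) and between ovCZSC and the mean of ovISC and ovOSC (vertical axis), both in log2(TPM + 1). Colours mark the test passed; 130 members pass neither and 3 pass both, and the point furthest right is BnaC05g08120D at 3.82.

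In neither of the comparisons did 130 members pass, and 131 lay within 1 log2 unit of 0 in both. The highest of the integument means was in ovCZSC for 63 members (42%), in ovISC for 53 (35.3%) and in ovOSC for 34 (22.7%). Among all genes that scored above 0 the shares were 48.9%, 33.6% and 17.5%, in the same order. A p above the threshold does not show that the layers were equal, and the use of the lowest integument mean favoured members that were even across the layers. In both directions together 5.33% of the members passed between ovISC and ovOSC, where 2.89% of all genes did, and 10% passed between ovCZSC and the distal layers, where 7.87% did.

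The ovCPT, a tissue at the chalazal end of the ovule that took no part in choosing the members, held far less of most of them. Relative to the mean of the integuments, 125 of 150 members were lower in ovCPT (15.7% of all genes tested were) and 4 were higher (27.4% of all genes tested). The median member difference was -1.98 log2 units, where that of all genes was 0.39. High integument levels chose the members, which favours a lower ovCPT, so the counts stand as a description. In 74 members ovCPT was lower by more than 2 log2 units. The bin from -2.5 to -2 alone held 17.3% of the members and 2.31% of all genes tested. Even so, the ovCPT mean was above every later subregion mean for 59 members and below the highest of them for 91. Leaving out ovCPT replicate 2, the shallow library, gave 128 lower and 3 higher members, and leaving out replicate 1 gave 118 lower and 7 higher.

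BnaA08g26170D, the highest-scoring member, had 13.4 and 6.04 TPM in ovCPT, against 68.6 to 140.5 TPM in the integument libraries (-3.43, SE 0.24, limma adjusted p = 3.1e-06). The widest gap was that of BnaC03g55640D, which had 11.8 and 0.168 TPM in ovCPT, against 86.7 to 189 TPM in the integuments (-5.04, SE 0.60, limma adjusted p = 0.000113). BnaCnng14140D had 5.98 and 0.198 TPM in ovCPT, against 37.2 to 98.8 TPM in the integuments (-4.46, SE 0.48, limma adjusted p = 5.8e-05). BnaC03g71930D had 9.31 and 0.0794 TPM in ovCPT, against 44.1 to 82.4 TPM in the integuments (-4.29, SE 0.55, limma adjusted p = 0.00019). In these last 3 genes the lowest value was that of ovCPT replicate 2, where 1 read on a median member was worth 5.77 TPM and 38 of 144 members had no read. In ovCPT replicate 1, where 1 read was worth 0.193 TPM, each of them was still below every integument library. Without ovCPT replicate 2 the differences were -3.31 for BnaC03g55640D, -3.18 for BnaCnng14140D and -2.66 for BnaC03g71930D.

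A few members went the other way. BnaA06g08160D, which carries the term response to abscisic acid, had 243 and 85.7 TPM in ovCPT, against 10.2 to 14.0 TPM in ovCZSC, 16.4 to 22.3 TPM in ovISC and 8.72 to 11.3 TPM in ovOSC (3.36, SE 0.31, limma adjusted p = 1.8e-05). BnaA05g20870D had 28.9 and 38.9 TPM in ovCPT, against 11.5 to 18.3 TPM in the integuments (1.21, SE 0.20, limma adjusted p = 0.00081). BnaA05g04220D had 26.8 and 47.9 TPM in ovCPT, against 6.58 to 39.1 TPM in the integuments (1.12, SE 0.30, limma adjusted p = 0.011). This call was lost without ovCPT replicate 2 and in the fit over all 74 libraries. BnaA05g03270D was the other gene that rose (1.02, SE 0.25, limma adjusted p = 0.0073). The ovule maximum of BnaA06g08160D was therefore in ovCPT and not in the integuments, although its ovCPT libraries differed by more than its integument libraries did. Transcripts of 27 storage protein and oleosin genes, which accumulate in maturing seed, summed to 84.7 and 1416 TPM in the ovCPT libraries, against 3.41 to 103 TPM in the integument libraries, and their part in these differences was not tested.

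**Figure D4:**
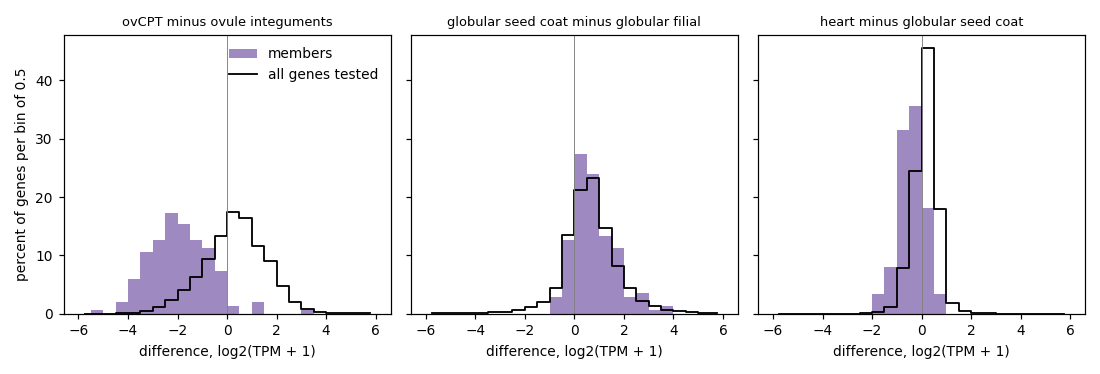
Share of genes by size of difference in log2(TPM + 1), in bins of 0.5, for the members (filled bars) and all genes tested (line) in 3 comparisons. The member median lies at -1.98 in ovCPT minus ovule integuments where that of all genes lies at 0.39, at 0.61 against 0.62 in globular seed coat minus globular filial tissue, and at -0.37 against 0.24 in heart minus globular seed coat.

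In the globular seed the members did not lean to the maternal side more than other genes did. The mean of gCZSC, gISC and gOSC was compared with the mean of gEP, gMCE, gPEN and gCZE, the filial tissues. The rule used these means too, as an upper limit, so the counts stand as a description. Of the 142 members that passed the filter on low values, 76 were higher in the seed coat (55.5% of all genes tested were) and 2 were lower (9.15% of all genes tested), and the median difference was 0.61 log2 units, where that of all genes was 0.62. The other 8 had a mean under 1 TPM in every globular subregion of the fit. After quantile normalization 28 members were higher and 20 lower, so the direction of these calls for members of small difference depended on the scale. Without gOSC replicate 1 the counts were 57 and 0, and the lower count was 1 without any 1 of gCZSC replicates 1 or 3, gISC replicates 1 or 3, gOSC replicate 2, gEP replicate 2, gMCE replicate 2, gPEN replicate 1 and gCZE replicates 1 or 2. Members whose later maximum lay in a seed coat were higher in 40 of 53, and those whose later maximum lay in the embryo proper in 22 of 49, which the choice of these groups largely fixes.

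Some members were nearly absent from the filial tissues at this stage, of which BnaC09g39750D and BnaC09g34690D were named after their values were seen. BnaC09g39750D had 15.4 to 21.3 TPM in gCZSC, 8.37 to 11.5 TPM in gISC and 17.1 and 19.3 TPM in gOSC, against at most 0.391 TPM in any of the 14 filial libraries (3.93, SE 0.13, limma adjusted p = 6.4e-16). BnaC09g34690D had 7.55 to 24.5 TPM in the seed coat libraries, against at most 0.749 TPM in the filial ones (3.74, SE 0.16, limma adjusted p = 5.7e-14). BnaC08g49000D, annotated with polygalacturonase activity and cell wall organization, a pectin-cleaving enzyme class, was less evenly placed. It had 6.53 to 16.0 TPM in gCZSC, 8.61 to 45.8 TPM in gISC and 6.75 and 7.53 TPM in gOSC, against 10.8 to 12.8 TPM in gMCE replicates 1 to 3 and at most 1.04 TPM in the other filial libraries (2.94, SE 0.43, limma adjusted p = 3.5e-06). The 2 members lower in the seed coat were BnaA05g20240D (-0.80, SE 0.28, limma adjusted p = 0.017) and BnaA09g34410D (-0.70, SE 0.29, limma adjusted p = 0.041). The call of BnaA05g20240D was lost without gOSC replicate 1, and that of BnaA09g34410D in 14 of 29 alternatives, 13 of which left out 1 library, with limma adjusted p up to 0.094.

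In the seed coat the median member was lower at the heart stage than at the globular stage. The rule used the means of both stages as an upper limit, so the counts stand as a description. Over CZSC, ISC and OSC, 33 of 149 members tested were lower at the heart stage (4.56% of all genes tested were) and 1 was higher (13% of all genes tested). The median difference, heart minus globular, was -0.37 log2 units, where that of all genes was 0.24. In hCZSC replicates 2 and 3, 75.8% and 97.0% of all genes were above 1 TPM, and the part of this in the comparison was not tested. Leaving out 1 library gave 18 to 43 lower and 0 to 6 higher members, with 18 lower without gOSC replicate 1, 0 higher without gOSC replicate 2, and 6 higher without hCZSC replicate 1. With a pseudocount of 0.1 TPM, 18 members were lower and 0 were higher.

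BnaA03g09170D, the most abundant member, had 2.46 to 5.56 TPM in hCZSC, 1.63 to 7.49 TPM in hISC and 55.5 to 115 TPM in hOSC, against 8.91 to 20.5 TPM in gCZSC, 29.1 to 79.9 TPM in gISC and 122 and 155 TPM in gOSC (-1.86, SE 0.34, limma adjusted p = 0.000285). It was lower in each of the layers. BnaC08g49000D, the polygalacturonase-annotated member, fell by 1.75 log2 units (SE 0.40, limma adjusted p = 0.0031). In hOSC it was at most 0.424 TPM, against 6.75 and 7.53 TPM in gOSC, while hISC replicates 1 and 2 still held 17.6 and 16.3 TPM. BnaC09g36190D (-1.60, SE 0.41), BnaA06g04320D (-1.52, SE 0.42) and BnaC02g38490D (-1.43, SE 0.33), all among the 8 most abundant members, were lower too. The call of BnaC09g36190D was lost with a pseudocount of 0.1 TPM. BnaC06g15810D was the member that rose (0.54, SE 0.16, limma adjusted p = 0.017), at means of 0.71 and 0.16 on the log2(TPM + 1) scale in heart and globular seed coat, both under 1 TPM. Its call was lost in 5 of 24 alternatives. These were a pseudocount of 0.1 TPM, quantile normalization, the fit over all 74 libraries, the replicate block and gOSC replicate 2 left out.

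Only 10 members had Gene Ontology terms in the part of the study's tables to hand. Among these were terms for transcription, cyclin-dependent kinase activity, polygalacturonase activity and ATP-dependent peptidase activity. BnaC08g11750D and BnaA04g02360D share the terms transcription factor activity and embryo development ending in seed dormancy. BnaC08g11750D had 40.8 to 47.6 TPM in ovCZSC, 27.3 to 39.8 TPM in ovISC and 38.8 to 44.6 TPM in ovOSC, and its later maximum was hEP at 8.76 ± 2.07 TPM (n = 3). BnaA04g02360D averaged 16.0 ± 4.60 TPM in the integuments, with a highest later mean of 4.38 ± 1.90 TPM in mgISC (n = 2). Both were lower in ovCPT than in the integuments (differences of -3.73 and -2.54 log2 units, limma adjusted p = 0.00024 and 0.0029). In ovCPT replicate 2 neither had a read, and without it the differences were -2.29 and -1.26 (limma adjusted p = 5.2e-05 and 0.033). They did not pass either test among the integuments.

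BnaC07g16080D, annotated with cyclin-dependent protein serine/threonine kinase activity, an enzyme class that drives the cell cycle, had 16.7 to 19.7 TPM in ovCZSC, 13.9 to 24.5 TPM in ovISC and 31.5 to 38.9 TPM in ovOSC. Its highest later mean was 7.30 ± 2.10 TPM in hEP, and in ovCPT it had 3.65 and 7.33 TPM, below every integument library (-1.92, SE 0.25, limma adjusted p = 0.00021). After the rescaling the score of BnaC07g16080D was -0.016, with hEP as the highest later subregion, so it was no longer a member on that scale. BnaA06g28390D, with terms for an ATP-dependent peptidase of the mitochondrial matrix, averaged 12.4 ± 3.77 TPM in the integuments and BnaA08g03140D, with DNA binding and nucleus, 12.6 ± 4.11 TPM. BnaA04g10310D (22.1 ± 8.88 TPM) and BnaC06g06970D (9.91 ± 2.76 TPM) carried only general terms. Among all genes with terms to hand, 11.8% of 8282 scored above 0. The share was 27.0% of the 429 genes under cell cycle and chromatin terms and 25.3% of the 87 under ribosome and translation terms, and 2.08% of the 96 under cell wall terms. These lists were chosen with earlier results of the data known, and the shares are descriptions. They hold for the deposited scale, on which 8280 genes of the table scored above 0, against 1637 after the rescaling.

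Homoeologs of members were often, but not always, of the same pattern. In the 3847 homoeologous pairs to hand, 11 contained a member, and in 2 of them both genes were members. BnaA06g18250D and BnaC03g55640D, 1 such pair, scored 1.22 and 2.02 and averaged 283 ± 49.8 and 128 ± 27.6 TPM in the integuments. BnaA09g34410D and BnaC08g25320D scored 1.39 and 1.25, with 108 ± 18.1 and 30.7 ± 4.49 TPM. Of the 9 partners that were not members, 7 scored above 0, where 12.3% of the genes in these pairs did. Means of the paired genes correlated over the 26 subregions at r = 0.69 to 0.98, points that share libraries and depth.

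The exceptions were the partners of BnaA08g26170D and BnaA08g13840D. BnaA08g26170D was present at 68.6 TPM or more in all integument libraries, whereas its Cn homoeolog BnaC08g13830D had 116, 142 and 124 TPM in ovCZSC, 6.26, 5.56 and 5.67 TPM in ovISC and 72.1 to 81.6 TPM in ovOSC. The ratio of the An to the Cn gene accordingly ranged between 0.990 and 16.2 among these libraries, with all the high values in ovISC. In the homoeolog the difference between ovISC and ovOSC was -3.52 log2 units (SE 0.50, limma adjusted p = 0.0020), while in BnaA08g26170D it was -0.64 (SE 0.26, limma adjusted p = 0.35); the difference between these differences was not tested. BnaC08g13830D scored -0.85 because its lowest integument mean, in ovISC, was below its gOSC mean. BnaA08g13840D averaged 170.4 ± 41.3 TPM in the integuments and its partner BnaC08g12910D 76.1 ± 26.6 TPM, and the partner scored -0.76 because it was higher in hOSC than in ovISC.

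**Figure D5:**
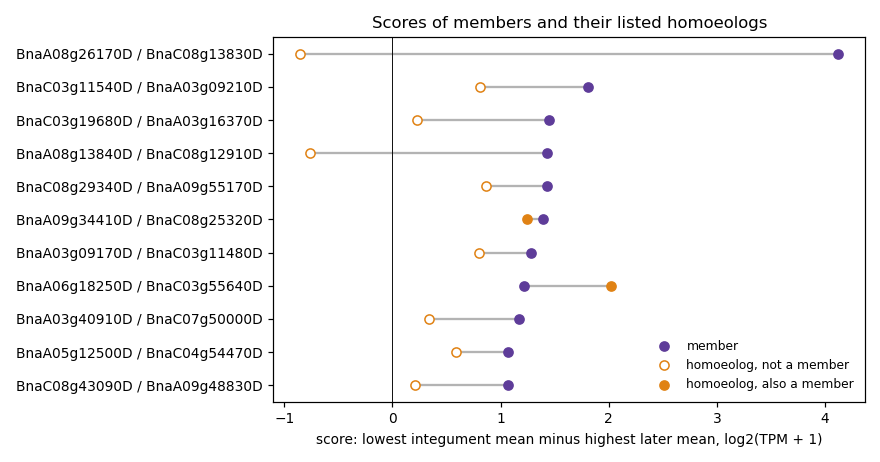
Scores of members and of their listed homoeologs, 1 pair per line, with the score as lowest integument mean minus highest later mean in log2(TPM + 1). Filled violet points are members, orange points their homoeologs (filled where also a member); 9 of the 11 partners lie above 0, and BnaC08g13830D (-0.85) and BnaC08g12910D (-0.76) lie below it.

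Members were seldom neighbours on the chromosomes, judged by consecutive gene numbers. Of the 286 adjacent genes, 31 (10.8%) scored above 0, where 8.45% of all placed genes did. BnaA06g03630D and BnaA06g03640D were the adjacent members, with 89.8 ± 13.3 and 57.3 ± 11.7 TPM in the integuments. A pair of members lay beside XTH9 genes on corresponding chromosomes, a feature chosen after the values were seen. BnaC09g00900D, the second highest score, is adjacent to the XTH9 gene BnaC09g00910D, whose own score of 1.95 would have placed it among the members. BnaA09g01400D is adjacent to the XTH9 gene BnaA09g01390D (score 0.18). BnaA09g01400D had 15.5, 15.1 and 26.1 TPM in ovCZSC, 3.72, 1.43 and 5.97 TPM in ovISC and 9.92, 1.77 and 19.5 TPM in ovOSC, and was under 1 TPM in 62 of the 63 later libraries. The 2 members correlated at r = 0.90 over the 26 subregions, and each with its XTH9 neighbour at 0.91 (C09) and 0.78 (A09). Whether reads of a neighbour reach into these genes was not tested.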

How the data were processed

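The authors used fastp for trimming, HISAT2 for alignment (Darmor-bzh genome) and featureCounts for counting uniquely mapped reads per gene, and deposited TPM for 101040 genes in 74 libraries, each summing to the same total. Homoeologs that share sequence lose reads under unique mapping. Whole reads were recovered, within 0.1 read, for 97319 genes as a lower limit of depth.

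Libraries were grouped by title. In 3 mature green libraries another label names a different tissue, and 1 mature green CZSC column carries a number that matches no title, so it was used as a library of that group without a number. Members and gene lists were chosen with earlier results of these data known. Differences were tested on log2(TPM + 1) with limma 3.58.1 (trend), on genes that averaged 1 TPM or more in any subregion fitted, and adjusted by Benjamini-Hochberg over all genes tested at 0.05. The fits held 11 ovule, 25 globular, or 48 globular and heart libraries. Only the ovISC minus ovOSC fit of the ovule libraries was tested on simulated data, with the same noise for every gene.

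Members named were the 8 highest scores, the 8 most abundant, the 3 largest and smallest called differences among integuments, the 3 highest and lowest in ovCPT, the 3 with the highest later mean, those in listed pairs or with Gene Ontology terms, and the 3 last in and first out. Other names are marked as chosen after their values were seen. Alternatives covered pseudocount, filter, rescaling, quantile normalization, the samples fitted, a replicate block and each library left out. Gene Ontology terms and homoeologous pairs came from the part of the study's lists to hand, and sequences were not used here.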

Additional observations from a re-analysis of the deposited data

Results flagged for a closer look

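In the micropylar endosperm of the heart stage (hMCE, 4 libraries), 1 library stood apart from the others in 4 members. BnaC02g38490D had 104 TPM in replicate 2 and 50.7 to 58.9 TPM in the other libraries. BnaC09g36190D had 79.6 TPM in replicate 2 and 21.5 to 29.7 TPM in the others, and BnaA03g22060D had 18.8 TPM and 12.9 to 13.8 TPM. BnaC03g02850D had 2.02 TPM in replicate 1 and 0.693 to 0.911 TPM in the others. These came from 45 groups of values examined, and chance gives about 1 in 20.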

How the results depend on the processing

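Of 283 recomputed counts, 238 stayed within 1.5 times the reported one. Pairing could not be assumed: same-numbered ovule libraries deviated together at r between -0.07 and 0.03. With a replicate block, ovISC minus ovOSC had 3 higher and 5 lower members, ovCZSC minus the distal layers 7 and 8, ovCPT 4 and 126, globular seed coat minus filial 76 and 4, and heart minus globular seed coat 3 and 22. That last block, set within each stage, also lost the call of BnaC08g49000D (-0.74, limma adjusted p = 0.24), and its stage difference rests on replicate numbers 4 and 5, which the seed coat lacks. With numbers shared by both stages, added after seeing the data, the counts were 1 and 31 and that gene's difference -1.76. Without both ovCPT libraries, ovISC minus ovOSC had 10 higher and 15 lower, and ovCZSC 17 and 21. Quantile normalization gave 8 lower in ovISC, 14 lower in ovCZSC, 28 higher and 20 lower in globular seed coat, and 0 higher in heart. Rescaling without genes that averaged at least 1000 TPM over the subregions gave 7 lower in ovISC and kept 93 members. A filter of 5 TPM gave 11 higher in ovCZSC and 0 higher in heart, and no filter gave 1 lower in globular seed coat. A fit over all 74 libraries gave 4 lower in ovCZSC, 2 higher in ovCPT and 0 higher in heart. A pseudocount of 0.1 TPM gave 0 higher and 18 lower in heart. The causes were not tested.

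With 1 library left out, ovISC minus ovOSC had 2 to 4 higher and 2 to 5 lower members, ovCZSC 3 to 6 and 4 to 8, ovCPT 3 to 7 and 118 to 128, globular seed coat 57 to 81 and 0 to 3, and heart 0 to 6 and 18 to 43. Of the members 127 to 150 were kept. Of 95 called results for named genes, 56 held under every alternative. BnaC03g19680D, globular seed coat minus filial, changed sign under quantile normalization (-0.10, limma adjusted p = 0.66), against 0.48 as reported (limma adjusted p = 0.0088). Depth limits low values in ovCPT replicate 2, where 38 of 144 members had no read.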

Other observations

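Gene groups differed in how often their genes stood higher in the integuments than in every later subregion, among genes with terms to hand and on the deposited scale. The share with a score above 0 was 15.1% of 2012 genes under signalling terms, 6.83% of 556 under transcription factor terms, 4.69% of 128 under cuticle and lipid terms, 4.45% of 517 under hormone terms and 3.08% of 130 under secondary metabolism terms, where it was 11.8% over all 8282. Of 12 genes with the cyclin-dependent kinase term carried by BnaC07g16080D, 7 (58.3%) scored above 0, a term chosen after the members' terms were seen. In the ovCPT comparison, 93 of 407 tested genes under cell cycle and chromatin terms were higher in ovCPT and 114 were lower, where 27.4% and 15.7% of all genes tested were.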
